A study of Mus musculus with 4 samples.

Results

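Stress-inducible transcripts were examined in CD45- live cells that were sorted from B16-OVA tumors, an ovalbumin-expressing melanoma line grafted into mice. The 7 genes were the growth arrest and DNA damage genes Gadd45a, Gadd45b and Gadd45g and the heat shock protein genes Hspa1a, Hspa2, Hspb1 and Hsp90b1. They were taken by name from the 750 endogenous probes of the NanoString Mouse PanCancer Pathways panel, and all 7 were present. The tumors were carried by C57BL/6 mice of 2 genotypes, FoxP3YFP-Cre mice (WT, n = 2 samples) and Prdm1fl/flFoxP3YFP-Cre mice (KO, n = 2 samples), so that both groups carry the Cre, and the KO mice lack Blimp1, the product of Prdm1, in the Foxp3+ regulatory T (Treg) cells in which the Cre is driven. Mice of both groups received B16-OVA cells under the skin and NP-OVA in complete Freund's adjuvant into the peritoneum on day 0, followed by NP-OVA in incomplete adjuvant on day 7, and tumors measured up to 1.5 cm3. The comparison asks how CD45- cells of the tumor differ when the Treg cells of the host lack Blimp1, since the deleted cells themselves lie outside the CD45- gate. The study's methods give an age between 5 and 10 weeks for its mice in general, and the labels do not tie samples to single animals, so that p-values cover the spread among these samples.

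Gadd45 proteins are small nuclear and cytoplasmic proteins without enzyme activity of their own. They are made in response to DNA damage and other stress, bind PCNA, the p21 cell cycle inhibitor and the mitotic kinase Cdk1, and activate the kinase MTK1 (MAP3K4 in human cells), which feeds p38 and JNK signaling. Gadd45a is a p53 target, while Gadd45b is induced by TGF-beta and NF-kB and Gadd45g by cytokines. Heat shock proteins are chaperones. Hspa1a encodes the inducible cytosolic HSP70, Hspa2 an HSP70 that is most abundant in testis, and Hspb1 a small heat shock protein that is phosphorylated downstream of p38. Hspa1a and Hspb1 are switched on by heat shock factor through heat shock elements. Hsp90b1 encodes GRP94, the HSP90 of the endoplasmic reticulum, which folds integrins and Toll-like receptors and is induced when unfolded proteins collect there.

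The promoters of 3 chaperone genes are shown because these genes lay at the extremes of the measured range, with Hspa1a and Hspb1 not above background in any sample and Hsp90b1 among the 8 probes with the highest counts in each sample. Each sequence is the 250 bases before the start site from RefSeq (GRCm38.p6), 5′ to 3′ on the strand of the gene. Both strands were searched, and capitals mark every match. A heat shock element was GAANNTTC or the inverted form TTCNNGAA. The CCAAT box was searched by the letters of its name, and the TATA box as TATAAA. The endoplasmic reticulum stress element was CCAAT followed after 9 bases by CCACG, so that it overlaps a CCAAT box. The cyclic AMP response element was TGACGTCA, and the AP-1 site was TGAGTCA.
Hspa1a (chr17:34972157-34972406, minus strand): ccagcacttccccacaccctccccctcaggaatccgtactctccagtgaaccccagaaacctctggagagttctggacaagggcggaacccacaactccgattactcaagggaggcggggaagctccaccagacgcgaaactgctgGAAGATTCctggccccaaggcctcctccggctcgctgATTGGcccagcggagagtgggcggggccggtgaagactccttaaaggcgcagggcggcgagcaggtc
Hspb1 (chr5:135887669-135887918, plus strand): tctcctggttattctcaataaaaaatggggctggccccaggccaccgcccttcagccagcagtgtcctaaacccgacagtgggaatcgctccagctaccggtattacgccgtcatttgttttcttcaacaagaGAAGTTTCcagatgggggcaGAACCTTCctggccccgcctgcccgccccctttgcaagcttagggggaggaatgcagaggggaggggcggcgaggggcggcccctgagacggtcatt
Hsp90b1 (chr10:86705445-86705694, minus strand): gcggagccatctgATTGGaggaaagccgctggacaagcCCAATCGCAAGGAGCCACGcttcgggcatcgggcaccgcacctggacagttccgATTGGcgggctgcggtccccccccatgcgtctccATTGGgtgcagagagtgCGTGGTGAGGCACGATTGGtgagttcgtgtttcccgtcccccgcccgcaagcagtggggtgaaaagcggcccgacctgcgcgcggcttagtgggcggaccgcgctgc
Hspa1a held 1 heat shock element that begins 104 bases before the start site, and Hspb1 held 2, at 117 and 97 bases. Of 32851 mouse windows of this length, 12.8% held at least 1. Hsp90b1 held no heat shock element by these letters and 2 endoplasmic reticulum stress elements, at 212 and 107 bases, a motif found in 0.113% of windows. Each of them contains 1 of its 5 CCAAT boxes. These matches are descriptions of the letters, and binding of a factor was not measured.

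The 3 Gadd45 promoters are shown because the counts of Gadd45b and Gadd45g kept nearly the same ratio in all 4 samples while those of Gadd45a did not. Windows, source and capitals are as for the chaperone genes.
Gadd45a (chr6:67037408-67037657, minus strand): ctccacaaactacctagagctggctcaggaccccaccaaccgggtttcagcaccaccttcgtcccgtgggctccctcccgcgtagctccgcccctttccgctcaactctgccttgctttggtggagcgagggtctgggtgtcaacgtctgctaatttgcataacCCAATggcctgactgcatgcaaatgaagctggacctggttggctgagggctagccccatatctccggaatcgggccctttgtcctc
Gadd45b (chr10:80929841-80930090, plus strand): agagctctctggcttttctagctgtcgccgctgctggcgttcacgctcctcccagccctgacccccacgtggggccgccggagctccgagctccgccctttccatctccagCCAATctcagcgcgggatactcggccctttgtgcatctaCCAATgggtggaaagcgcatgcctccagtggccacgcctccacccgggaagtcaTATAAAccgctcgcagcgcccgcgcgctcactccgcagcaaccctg
Gadd45g (chr13:51846425-51846674, plus strand): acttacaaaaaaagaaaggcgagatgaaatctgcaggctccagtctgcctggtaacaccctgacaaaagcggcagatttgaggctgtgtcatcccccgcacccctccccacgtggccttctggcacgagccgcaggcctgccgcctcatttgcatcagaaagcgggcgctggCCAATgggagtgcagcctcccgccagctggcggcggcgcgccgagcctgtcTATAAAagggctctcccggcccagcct
Each Gadd45 window held a CCAAT box, at 86 bases before the start site in Gadd45a, 139 and 100 bases in Gadd45b and 78 bases in Gadd45g, and 33.8% of all windows held one. Gadd45b and Gadd45g held a TATA box, at 46 and 27 bases, while the letters TATAAA were not found in the window of Gadd45a. Of all windows 12.4% held a TATA box. No match to the heat shock, cyclic AMP or AP-1 letters was found in the 3 windows. Sites for p53 or NF-kB were not searched. Whether any of these letters bears on the counts was not tested.

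The nCounter assay counts barcoded probes hybridized to unamplified RNA, here 100 ng per sample. Endogenous counts summed to between 626056 and 692284 per sample. A count was called above background when it exceeded the mean plus 2 SD of the 8 negative control probes of the same sample, a limit of 17.5 to 21.9 counts, and 446 of the 750 genes passed this limit in at least 2 samples and were tested. Scaled counts are raw counts divided by 1 factor per sample from the 20 housekeeping probes (0.935 to 1.06). KO 2 stood apart from the other samples over the 446 tested genes, at 6.95 on the first principal component (60.4% of the variance) against -3.27 to -1.33, so the fold changes of KO over WT are also given without it. The deletion was made in Treg cells, which lie outside the gate, and the Prdm1 probe gave 9 raw counts in WT 1, WT 2 and KO 1 and 6 in KO 2, not above background, so that it checks no label. Of the melanocyte probes, Pax3 (1576 to 1979 scaled counts) and the receptor gene Met (1052 to 1961) were well above background, Kit (33.3 to 42.5) lay nearer to the limit, and Lef1 was not above background in any sample. Of 11 leukocyte probes 10 were not above background in any sample, and the 11 together held 67.6 to 86.0 scaled counts. The fibroblast and pericyte probes, 7 in all, together held 862 and 1584 scaled counts in the WT pair and 1264 and 1109 in the KO pair, with Pdgfra not above background in any sample. Most of these counts were of Fn1, at 610 and 1139 in the WT pair and 985 and 962 in the KO pair. Of 3 endothelial probes Kdr and Flt1 were not above background in any sample, and the 3 held 256 to 428 scaled counts. The 3 keratinocyte probes held 48.5 to 78.0.

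Gadd45a transcript was highest in KO 2, and the 2 groups overlapped. Its raw counts were 474 in WT 1, 625 in WT 2, 433 in KO 1 and 847 in KO 2, which gave 448, 650, 463 and 806 scaled counts. KO 1 lay beside WT 1, and KO 2 lay above WT 2. KO 2 held 1.74-fold more than KO 1, with a 95% interval of 1.55 to 1.96 that covers counting error only, and 1.24-fold more than WT 2 (1.12 to 1.38). WT 2 in turn held 1.45-fold more than WT 1 (1.29 to 1.64), so that the step from WT 2 to KO 2 was smaller than the step between the WT samples, except with scaling to the positive control probes, where they were 1.37-fold and 1.32-fold. The mean of the WT group was 549 ± 143 and that of the KO group 635 ± 243 (SD, n = 2 each).

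Both KO samples held less Gadd45b transcript than either WT sample with housekeeping scaling, although with TMM or DESeq2 size factors the groups overlapped. Scaled counts were 250 and 338 in WT 1 and WT 2, and 211 and 241 in KO 1 and KO 2. KO 2 and WT 1 lay next to each other, at a ratio of 0.962 with a counting interval of 0.806 to 1.15, and with TMM KO 2 (253) lay above WT 1 (244). Over all 446 tested genes, 31.4% had both KO samples below both WT samples and 11.2% had both above, and of the 5 tested stress genes Gadd45b was the 1 below and none was above. WT samples averaged 294 ± 62.1 and KO samples 226 ± 21.3 (SD, n = 2 each).

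Gadd45g transcript stood out in WT 2. Scaled counts were 96.4 in WT 1, 147 in WT 2, 94.1 in KO 1 and 99.9 in KO 2. Apart from WT 2, the samples lay within a narrow range, and KO 2 over KO 1 was 1.06 with a counting interval of 0.792 to 1.43. WT 2 held 1.52-fold more than WT 1 (1.17 to 1.98). WT samples averaged 122 ± 35.6 and KO samples 97.0 ± 4.14 (SD, n = 2 each).

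**Figure D1:**
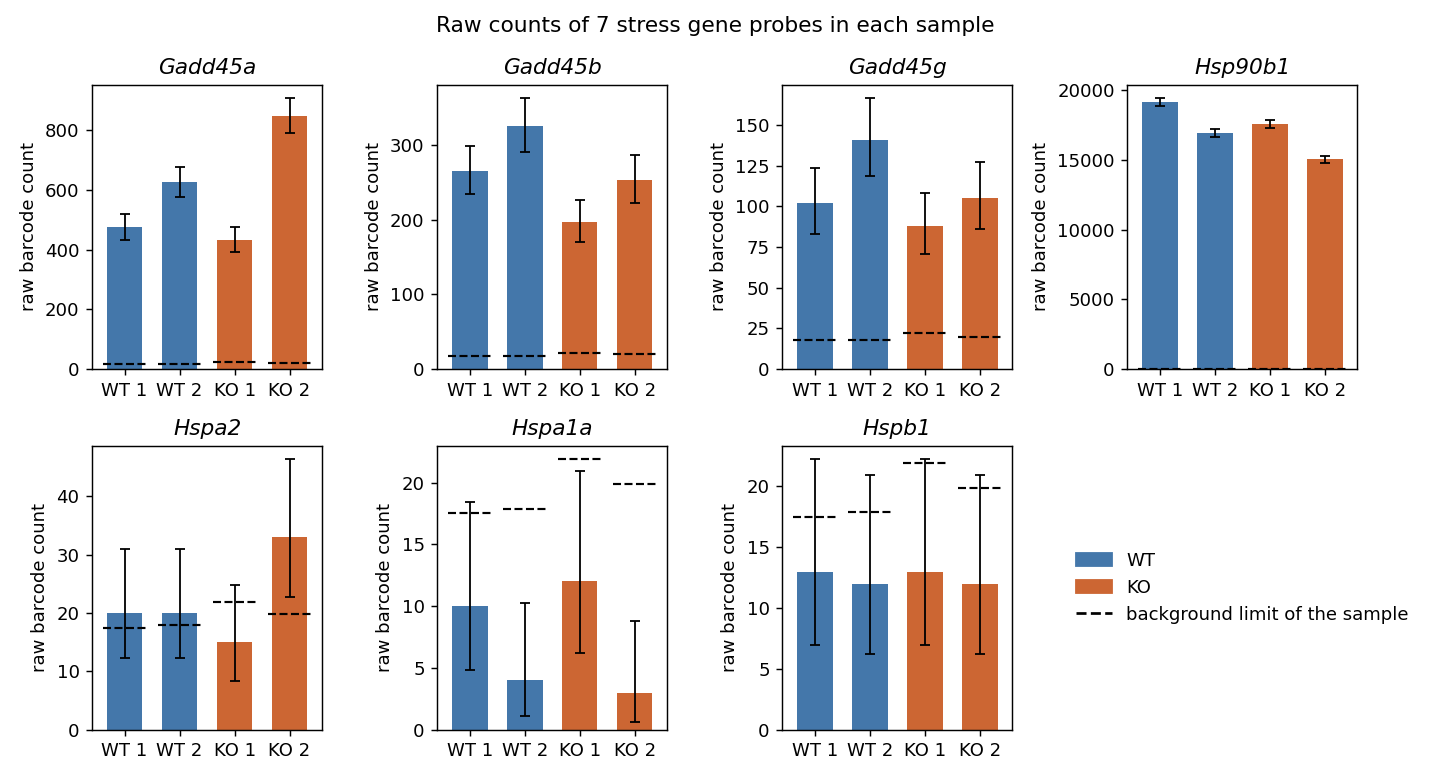
Raw barcode counts (y axis, linear from 0, own scale per gene) of the 7 probes in WT 1, WT 2, KO 1 and KO 2 (x axis). Bars are single samples, error bars are exact Poisson 95% intervals for counting error, and dashed lines are the background limit of each sample (17.5 to 21.9 counts); Gadd45a is highest in KO 2 at 847 counts, Hsp90b1 lowest there at 15047, and Hspa1a and Hspb1 stay below the dashed lines.

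The Gadd45 genes did not move as one family. A ratio of 2 raw counts within a sample does not depend on the scaling, although its absolute size also reflects how well each probe binds, so that changes in the ratio between samples are the quantity of interest. The ratio of Gadd45a to Gadd45b was 1.79 (95% counting interval 1.54 to 2.09) in WT 1, 1.92 (1.68 to 2.21) in WT 2, 2.20 (1.85 to 2.61) in KO 1 and 3.35 (2.91 to 3.87) in KO 2. The interval of KO 2 did not overlap that of any other sample. These intervals leave out the spread between samples, and over the tested genes every pair of samples differed by more than counting noise. How many other gene pairs set KO 2 apart in this way was not counted. The ratio of Gadd45a to Gadd45g was 4.65, 4.43 and 4.92 in WT 1, WT 2 and KO 1 and 8.07 (6.58 to 9.98) in KO 2. Here too KO 2 stood alone, and the other samples overlapped one another within counting error. The ratio of Gadd45b to Gadd45g was 2.60, 2.30, 2.24 and 2.41 in the same order, with intervals that overlapped in all samples. Relative to both other family members, Gadd45a was thus high in KO 2 and not in KO 1.

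**Figure D2:**
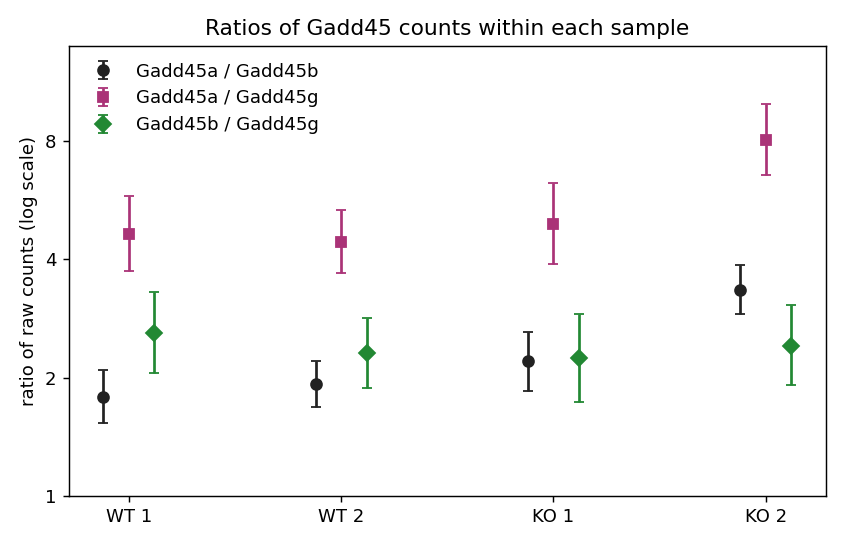
Ratios of raw counts between pairs of Gadd45 genes (y axis, log scale) in each sample (x axis), with exact 95% intervals that cover counting error only. The ratios with Gadd45a on top are highest in KO 2, at 3.35 and 8.07, while Gadd45b over Gadd45g stays between 2.24 and 2.60.

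Hsp90b1 was the abundant member of the group, and it was lowest in KO 2. Its probe took between 2.22% and 2.78% of all endogenous counts. Scaled counts were 18071 in WT 1, 17611 in WT 2, 18778 in KO 1 and 14321 in KO 2. WT 1, WT 2 and KO 1 lay close together, and KO 2 held 0.763 of the KO 1 value (0.746 to 0.779, counting error only) and 0.813 of the WT 2 value (0.796 to 0.831). WT samples averaged 17841 ± 326 and KO samples 16550 ± 3151 (SD, n = 2 each), so that the spread was far wider between the KO samples than between the WT samples. The KO samples also differed more over all tested genes, with a median size of the log2 difference of 0.21, beside 0.11 between the WT samples.

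Hspa2 lay close to the background limit. Its raw counts were 20 and 20 in the WT samples, 1.14 and 1.12 times the limit, 15 in KO 1, which was not above background, and 33 in KO 2, 1.66 times the limit. The counting intervals of the ratio of KO 2 to WT 1 (0.926 to 3.06) and to WT 2 (0.841 to 2.78) both contained 1, and no ratio to KO 1 is given. A difference of KO 2 from the WT samples was therefore not detectable at this depth.

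Hspa1a and Hspb1, the heat-inducible genes of the set, were not above background in any sample and were not tested. Hspa1a gave 10 and 4 raw counts in WT 1 and WT 2 and 12 and 3 in KO 1 and KO 2, all below the limits of 17.5, 17.9, 21.9 and 19.9 counts. Between 2 and 6 of the 8 negative control probes of the same sample gave at least as many counts. Hspb1 gave 13, 12, 13 and 12 raw counts in the same order, and in each sample 2 negative controls gave at least as many. No fold change is given for either gene, since counts in this range do not differ from those of probes without a target. The heat shock elements of their promoters thus stand beside transcripts that were not above background in CD45- cells from tumors of either host genotype, KO 2 included. The upper exact Poisson bounds in KO 2 were 8.77 counts for Hspa1a and 21.0 for Hspb1. Hspa1b, a second inducible HSP70 gene that neighbours Hspa1a, has a promoter window that differs from that of Hspa1a in 3 of 250 bases and has no probe under its own name on the panel. Whether the Hspa1a probe also binds Hspa1b transcripts was not tested.

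The sample labelled KO 2 was compared with the other 3 samples without a test, since 1 sample has no replicate. KO 2 minus the mean of the others on the log2 scale of scaled counts plus 1 was 0.65 for Gadd45a, against an SD of 0.30 among the others, -0.12 for Gadd45b (SD 0.34), -0.14 for Gadd45g (SD 0.36) and -0.34 for Hsp90b1 (SD 0.047). For Hspa2 it was 0.73 (SD 0.18) and 1.24 after background subtraction, with counts near or below the background limit. The median over all 446 tested genes was -0.08. Gadd45a thus ranked 24 among the 446 genes in order of this difference, while Gadd45b ranked 243, Gadd45g 252 and Hsp90b1 368. KO 2 was the highest sample for 2 of the 5 tested stress genes and for 21.5% of all tested genes, and the lowest for 1 of the 5 and for 43.5% of all. None of the 5 exceeded the mean of the others by more than 1 on the log2 scale, as 9 of all tested genes did (2.02%).

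**Figure D3:**
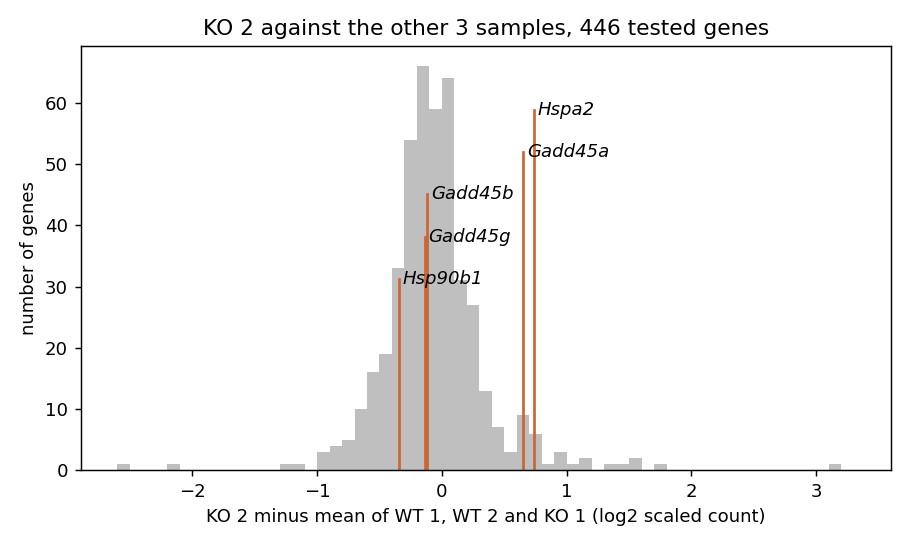
Histogram of the difference between KO 2 and the mean of WT 1, WT 2 and KO 1 for the 446 tested genes (x axis, log2 scaled count, y axis, number of genes). Orange lines mark the 5 tested stress genes, with Hspa2 at 0.73 and Gadd45a at 0.65 in the upper tail, Gadd45b and Gadd45g near the median of -0.08, and Hsp90b1 at -0.34. The counts of Hspa2 lay near or below the background limit.

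Other early stress genes set KO 2 apart by more. The transcription factor gene Klf4 was at 450 and 389 scaled counts in the WT samples, 310 in KO 1 and 3388 in KO 2, Fos at 2451, 2197, 1282 and 5676, and Jun at 1032, 954, 732 and 2319. The immediate-early list had 7 genes on the panel, 6 of them tested, and its summed scaled counts were 8826 and 8260 in the WT pair, 6512 in KO 1 and 15874 in KO 2. Nr4a3 and Myc of the same list were lowest in KO 2, at 768 against 845 to 1161 and at 2060 against 2660 to 2971. Genes of this class are known to be induced during enzymatic digestion of tissue, and the study's tumors were digested with collagenase before sorting. The heat shock genes Hspa1a and Hspb1 were not above background in the same sample. The part of digestion or of any other handling in the KO 2 values of Gadd45a was not tested. Of the 6 tested fibroblast and pericyte probes, Col1a1, Col1a2, Col3a1 and Pdgfrb were lowest in KO 2, the first 3 not above background there, with Col3a1 at 16.2 against 68.0 to 162 scaled counts in the other samples. Fn1 (962 in KO 2, 610 to 1139 in the others) and Col5a1 (25.7, 23.6 to 29.1) were not, and the summed counts of the list in KO 2 lay within the range of the other samples. That sum was mostly Fn1, at 962 of 1109 scaled counts in KO 2, so it says little about the other fibroblast and pericyte probes. The part of such cells in the Gadd45a and Hsp90b1 values was not tested either. In bulk RNA, fewer cells of a type and less RNA per cell cannot be told apart.

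In the comparison of KO with WT samples, 2 of the 5 tested stress genes had a higher and 3 a lower mean in KO, and none passed the threshold. The median log2 fold change of the 5 was -0.11, beside -0.08 over all 446 tested genes, of which 33.2% had a higher and 66.8% a lower mean in KO. Without KO 2, 1 of the 5 had a higher mean and the median was -0.30, which is the value of Hspa2, a gene near background. Over all tested genes 34.8% then had a higher mean, and the median was -0.063. By edgeR's quasi-likelihood test with Benjamini-Hochberg adjustment over all tested genes, 0 of 446 genes passed an adjusted p of 0.05 (0%), 33 genes (7.4%) were under 0.05 before adjustment, none of them a stress gene of this set, and DESeq2 called 3 genes and none of the 5.

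Gadd45b had the lowest p of the set. It had a log2 fold change of -0.38 ± 0.18 (SE), and the 95% interval ran from -0.82 to 0.06 (edgeR, adjusted p = 0.568). The sign was negative under every alternative run, and leaving out 1 sample moved the value between -0.58 and -0.15, the smaller size without WT 2, and it was -0.48 without KO 2. Gadd45g had a log2 fold change of -0.32 ± 0.27 (SE, edgeR, adjusted p = 0.687), which was 0.01 without WT 2 and -0.36 without KO 2. Gadd45a had a log2 fold change of 0.21 ± 0.29 (SE, edgeR, adjusted p = 0.816), with an interval from -0.50 to 0.92. Without KO 2 it was -0.24 and without WT 1 it was -0.03, so that its direction rested on those samples. The direction of the 3 Gadd45 genes did not change between the scalings tried, and no member of the family was shown to differ between genotypes.

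Hspa2 had a log2 fold change of 0.27 ± 0.40 (SE, edgeR, adjusted p = 0.827), and -0.30 without KO 2. Hsp90b1 had a log2 fold change of -0.11 ± 0.16 (SE, edgeR, adjusted p = 0.832), with an interval from -0.51 to 0.29, and was at 0.07 without KO 2 and at 0.03 with scaling to the positive control probes. The smallest p that an exact permutation test (two-sided) can reach with 2 samples per group is 0.333. The intervals leave room for differences of either sign in each of the 5 genes.

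**Figure D4:**
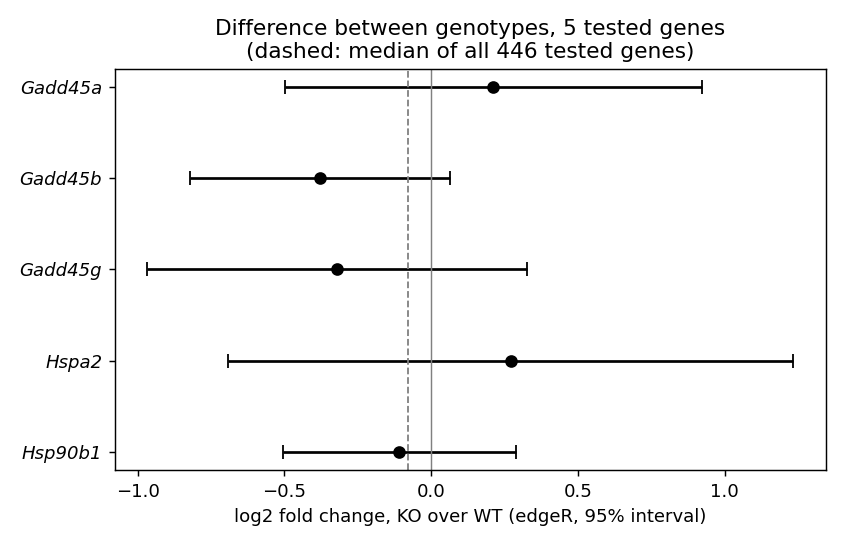
Log2 fold change of KO over WT (x axis) for the 5 tested stress genes (y axis). Points are edgeR estimates from 2 samples per group, error bars are 95% intervals, the solid line is 0 and the dashed line is the median of all 446 tested genes (-0.08); each interval includes 0.

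Of 18 listed partners and regulators of Gadd45, 14 were on the panel, and all 14 were tested. Map3k4, the gene of MTK1, and Cdk1 had no probe under their own names. Map3k1, which had one, is a different kinase gene. The 14 genes had 6 higher and 8 lower means in KO samples and a median of -0.02 on the log2 scale. Of all tested genes 33.2% were higher and 66.8% lower. The adjusted threshold was passed by 0 of them in edgeR, and 3 had an unadjusted p under 0.05, 2 higher and 1 lower, beside 7.4% of all tested genes. Without KO 2 the counts were again 6 higher and 8 lower, and the median was -0.061. Map3k1, a kinase upstream of JNK, had 316 and 272 scaled counts in WT 1 and WT 2, and 483 and 410 in KO 1 and KO 2 (log2 fold change 0.60, edgeR adjusted p = 0.414, and 0.72 without KO 2). Cdkn1a, the p53 target that encodes p21, had 2353 and 2683 in the WT pair and 3053 and 5058 in the KO pair (0.69, edgeR adjusted p = 0.568), and its log2 fold change was 0.28 without KO 2. Its highest value lay in KO 2, as did that of Gadd45a, but KO 1 also exceeded both WT samples in Cdkn1a and not in Gadd45a. Smad3, a mediator of TGF-beta signaling, had 517 and 525 in the WT pair and 443 and 409 in the KO pair (-0.29, edgeR adjusted p = 0.568, and -0.24 without KO 2). Its mean was lower in KO, as were those of Gadd45b and of 66.8% of all tested genes.

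Of the p38 and JNK kinases, 7 of 10 on the panel were tested, with 4 higher and 3 lower means in KO, beside 33.2% and 66.8% of all tested genes. Their median was 0.02, and 0 had an unadjusted p under 0.05 by edgeR, beside 7.4% of all tested genes. Without KO 2 the median was -0.034, and 3 of the 7 had higher means. Mapk8, which encodes JNK1, had 340 and 380 in the WT pair and 404 and 449 in the KO pair (log2 fold change 0.25, edgeR adjusted p = 0.568, and 0.17 without KO 2). Map2k6, an activator of p38, had 102 and 82.2 against 57.7 and 62.8 (-0.61, edgeR adjusted p = 0.568, and -0.67 without KO 2). In both genes the groups did not overlap with housekeeping scaling, as in 11.2% of all tested genes with both KO samples above, like Mapk8, and 31.4% with both below, like Map2k6. Of kinases that need HSP90 for folding, 16 of 18 on the panel were tested, with 5 higher and 11 lower means, a median of -0.13 and 1 at an unadjusted p under 0.05 by edgeR, beside 7.4% of all tested genes. The share with lower means, 68.8%, was close to the 66.8% of all tested genes. Without KO 2 there were 2 higher and 14 lower, a median of -0.089, beside 65.2% lower over all tested genes. The 1 gene was Jak2, with 635 and 771 in the WT pair and 503 and 551 in the KO pair (-0.42, edgeR adjusted p = 0.538, and -0.48 without KO 2).

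Of the list of further heat shock and unfolded protein response genes, 2 of 23 were on the panel. Ddit3, which encodes the endoplasmic reticulum stress factor CHOP, was at 2224 scaled counts in WT 1, 2923 in WT 2, 2430 in KO 1 and 3052 in KO 2. Its highest samples were KO 2 and WT 2, the same 2 as for Gadd45a, while the groups overlapped (log2 fold change 0.09, edgeR adjusted p = 0.875, and -0.082 without KO 2). Ddit4, a stress-induced inhibitor of mTOR signaling, was at 780, 652, 844 and 528 in the same order, lowest in KO 2 and highest in KO 1, as Hsp90b1 was (-0.06, edgeR adjusted p = 0.946, and 0.24 without KO 2).

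Among the other tested genes, the profiles nearest to that of Gadd45a over the 4 samples, by Euclidean distance between centred log2 values, were those of Hdac11 (distance 0.11), a histone deacetylase gene at 52.0, 70.7, 54.5 and 88.5 scaled counts in WT 1, WT 2, KO 1 and KO 2, Igfbp3 (0.13), an IGF binding protein gene near background at 14.2, 19.8, 12.8 and 24.7, and Met (0.19), at 1052, 1486, 1258 and 1961. All 3 had KO 2 highest and WT 2 next, and with 4 samples such likeness is a description of these libraries.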

How the data were processed

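Total RNA of sorted CD45- cells was hybridized by the authors to the panel on the nCounter system. Barcode counts of each probe were deposited unnormalized, and the authors also deposited scaled signal, that is each endogenous count times 1 factor per sample (0.877 to 0.986) with low values raised to a floor of 17. The sources used here do not say how the factors were chosen. The authors called genes at an unadjusted p in nSolver.

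Scaling factors were geometric means over the 20 housekeeping probes, all with a mean count of at least 100, and counts were tested with edgeR 4.0.16 (glmQLFit, glmQLFTest, genotype as the term, two-sided) in R 4.3.3. The fit covered the 446 genes above background in at least 2 samples, and p-values were adjusted over all of them. Every pair of samples differed by more than counting noise (chi-square per degree of freedom of 12.8 or more). Intervals on single counts and ratios are exact (Poisson or binomial, 95%) and cover counting error only. Alternatives included DESeq2 1.42.0, limma 3.58.1, other scalings and filters and leaving out each sample. All 7 probes matched RefSeq by accession. The rule for naming genes took all 7 genes, up to 3 genes of lowest p per list, Fos, Jun and Klf4, and the 3 profiles nearest to the member with the widest range among those with a mean of at least 50; Ddit3, Col3a1 and the check of markers came from the lists. Genes and lists were chosen with earlier results of these data known.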

Additional observations from a re-analysis of the deposited data

How the results depend on the processing

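None of the 5 tested stress genes passed the adjusted threshold under any of the 16 alternatives, where their adjusted p ranged from 0.223 to 0.994. Over all tested genes the count past an adjusted p of 0.05 was 0 as reported, 3 with DESeq2, 1 with the replicate number as a block and 0 to 20 without 1 sample, the 20 without KO 1, which leaves KO 2 alone and assumed to vary like the WT samples. The labels give samples of the 2 groups equal numbers and do not say that these pair them. Deviations from the group means correlated at 0.040 between WT 1 and KO 1 over the tested genes. With 2 samples per group this value rests on a single difference within each group. It therefore cannot decide whether equal numbers share a batch. Before adjustment 33 genes were under 0.05, and the count was 52 with no filter, 14 by the unequal-variance test of log2 values and 12 to 105 without 1 sample (lowest without WT 2, highest without KO 1). Of the stress genes, 2 had a higher mean in KO as reported, 4 of 7 without a filter, 1 with a mean count of at least 50 (Hspa2 no longer tested), 3 of 5 with positive control scaling and 1 to 3 without 1 sample. Their median log2 fold change of -0.11 was 0.031 when scaled to the positive controls, 0.026 with no filter and -0.30 to 0.010 without 1 sample. The median of all tested genes, -0.08, was 0.052 when scaled to the positive controls and 0.0011 with TMM.

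Without 1 sample the log2 fold change ranged from -0.24 to 0.56 for Gadd45a, -0.60 to 0.010 for Gadd45g, -0.30 to 0.66 for Hspa2 and -0.32 to 0.074 for Hsp90b1, the last also at 0.031 when scaled to the positive controls. Gadd45b kept its sign. The difference of KO 2 from the others kept its sign for Gadd45a, Hspa2 and Hsp90b1 under each alternative, and without 1 sample ranged from -0.27 to 0.068 for Gadd45b and -0.25 to 0.069 for Gadd45g, above 0 without WT 2. For Hspa2 it was 1.24 after background subtraction in place of 0.73. The cause of these changes was not tested. Hspa1a, Hspb1 and Hspa2 are limited by counts near background.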

Other observations

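Of the 5 tested stress genes, 4 (Gadd45a, Gadd45b, Gadd45g and Hspa2) were higher in WT 2 than in WT 1 and higher in KO 2 than in KO 1, as were 120 of the 446 tested genes (26.9%). For Hspa2 this rested on the scaling and on counts near background. Its raw count was 20 in both WT samples and 15 in KO 1, not above background. With positive control scaling Hspa2 was not higher in WT 2 (18.93) than in WT 1 (18.95). The labels do not say that equal numbers pair the samples. Between the WT samples, the log2 difference of Gadd45g (0.60) ranked 34, that of Gadd45a (0.54) 43 and that of Gadd45b (0.43) 62 in size among the 446 genes, where the median size was 0.11. Between the KO samples, the difference of Gadd45a (0.80) ranked 23, that of Gadd45b (0.19) 231 and that of Gadd45g (0.09) 336, where the median size was 0.21. So all 3 Gadd45 genes were among the more variable genes between the WT samples, and Gadd45a alone of the 3 was so between the KO samples.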
